A study of Mus musculus with 3 samples.

Results

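Transcripts of 37 genes of DNA repair and damage sensing were followed in mouse peritoneal macrophages after hexavalent chromium. The members were taken by gene symbol from a list of named repair genes, and probes were assigned to them by the name or accession in the array files. Of the 37 genes, 36 had a probe on the array, with 65 probes in all, among 14562 genes with a probe well above background on at least 1 array. Atr, the kinase that answers stalled replication forks, had no probe under its name. Of the 65 probes, 52 were well above background on at least 1 array and 45 on all 3, and 35 members could be measured on all 3 arrays.

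Male Swiss albino mice aged 8 weeks were used in groups of 10, and all of them received 125 µg of lipopolysaccharide into the peritoneum on day 0, an endotoxin that draws macrophages there. On day 4, one group received 35 nmol and another 70 nmol of potassium dichromate, both together with 100 ng of TPA, and the control group received 100 ng of TPA alone. TPA is a phorbol ester that activates protein kinase C and serves as a tumour promoter. Cells were collected by peritoneal lavage 4 days later, and each group gave 1 one-colour Agilent array. The sample names call the doses 35 and 70 nmol of Cr(VI) while the protocols give them as the salt, in which each formula unit holds a pair of chromium atoms. Whether 1 animal or pooled animals supplied the RNA of an array is not stated in the labels. The study title names lipoic acid, with which no group described here was treated.

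Chromate enters cells as an anion and is reduced inside them, which leaves chromium bound to DNA, oxidised bases, strand breaks and crosslinks. Base excision repair removes single damaged bases through a glycosylase, a nuclease, a polymerase and a ligase, while nucleotide excision repair cuts out a stretch around a bulky lesion. Mismatch repair corrects replication errors. Double-strand breaks are rejoined by end joining or by recombination with an intact copy, and kinases of the ATM and ATR pathways signal the damage to the cell cycle. Many of these proteins are controlled after translation, so a transcript level is not a measure of repair.

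The promoters of 5 members are shown first because the results below turn on these genes. Ogg1 had the largest difference of any member on its brightest probe, and Neil1, Parp1, Rad52 and Xrcc4 were lower at 70 nmol on both of their probes by more than the scanner error. The choice was made after their values were seen. Each sequence is the 250 bases before the gene's start from RefSeq, build GRCm38.p6, written 5′ to 3′ on the gene's strand. Ogg1 lies at chr6:113326726-113326975 (+), Neil1 at chr9:57148306-57148555 (-), Parp1 at chr1:180568641-180568890 (+), Rad52 at chr6:119902448-119902697 (+) and Xrcc4 at chr13:90089609-90089858 (-). Capitals mark matches, on either strand, to the GC box GGGCGG bound by Sp1, to the CCAAT box, or to the antioxidant response core TGACNNNGC bound by NRF2.
Ogg1: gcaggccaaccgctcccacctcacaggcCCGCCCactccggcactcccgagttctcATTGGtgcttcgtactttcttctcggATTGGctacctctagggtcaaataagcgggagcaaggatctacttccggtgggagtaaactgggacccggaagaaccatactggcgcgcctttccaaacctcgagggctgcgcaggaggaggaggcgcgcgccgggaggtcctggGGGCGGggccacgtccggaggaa
Neil1: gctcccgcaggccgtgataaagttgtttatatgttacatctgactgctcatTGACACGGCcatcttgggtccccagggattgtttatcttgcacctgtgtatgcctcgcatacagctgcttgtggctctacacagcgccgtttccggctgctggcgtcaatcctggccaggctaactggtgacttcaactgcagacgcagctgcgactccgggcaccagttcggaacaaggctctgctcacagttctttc
Parp1: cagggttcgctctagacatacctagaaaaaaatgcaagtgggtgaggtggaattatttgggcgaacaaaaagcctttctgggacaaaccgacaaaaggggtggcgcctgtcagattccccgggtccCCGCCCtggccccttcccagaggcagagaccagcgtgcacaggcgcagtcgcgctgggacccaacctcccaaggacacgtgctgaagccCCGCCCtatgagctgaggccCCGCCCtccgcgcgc
Rad52: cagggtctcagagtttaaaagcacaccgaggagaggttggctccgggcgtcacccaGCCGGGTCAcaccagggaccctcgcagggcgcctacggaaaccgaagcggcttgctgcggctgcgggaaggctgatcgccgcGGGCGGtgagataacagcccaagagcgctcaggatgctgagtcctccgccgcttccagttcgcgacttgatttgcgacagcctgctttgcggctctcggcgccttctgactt
Xrcc4: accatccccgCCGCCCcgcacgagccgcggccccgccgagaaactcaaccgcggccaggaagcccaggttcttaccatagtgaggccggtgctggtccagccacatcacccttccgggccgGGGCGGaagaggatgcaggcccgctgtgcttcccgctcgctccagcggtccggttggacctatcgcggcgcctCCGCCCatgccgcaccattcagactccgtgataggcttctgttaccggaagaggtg

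Ogg1 held 2 GC boxes and 2 CCAAT boxes, Parp1 and Xrcc4 held 3 GC boxes each, and Rad52 held 1 GC box and 1 antioxidant response core. Neil1 held 1 antioxidant response core and none of the other motifs searched. The TPA response element TGACTCA, to which AP-1 binds, was in none of the 5 windows, nor in any of the 29 member promoters that the RefSeq table held. Over all 32851 promoters of the table, 4.46% held it. The GC box was in 16 of the 29 member promoters and in 32.7% of all promoters, and the CCAAT box was in 15 of the 29 and in 33.8% of all. The antioxidant response core was in 5 of the 29 (Brca2, Mre11a, Neil1, Pms2 and Rad52) and in 10.2% of all. It can overlap a TPA response element that is followed by GC. Of the E2F motifs, TTTCCCGC was in 3 of the 29 (Brca2, Chek2 and Xrcc6) and in 0.895% of all promoters, and TTTGGCGC was in none of the 29 and in 0.417% of all. Median GC content was 55.6% over the 29 member promoters and 52.4% over all promoters. A match describes the letters only. The table did not hold Polb, Xpc, Ercc3, Ddb2, Prkdc, Nbn, Rad50 and Fancd2.

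A level below is the log2 processed signal of a probe minus the 75th percentile of its array, and a difference is one level minus another. Scaling on spike-in RNA in place of the percentile moved the median of all genes to -0.32 at 70 nmol and -0.38 at 35 nmol against the control, so every sign below is relative to the other genes of the array. A member is given by its brightest probe unless another is named, and a probe's level has meaning only against the same probe on another array. With 1 array per group there was no test, and precision is limited by the number of arrays. The error beside a difference is the scanner software's own estimate, with a median of 0.21 (log2) over the members at 70 nmol against the control, and it leaves out the spread between animals. Between 18564 and 20200 of 41174 probes (45.1% to 49.1%) were well above background on an array, and the median standard deviation of repeated spots was 0.034 to 0.045. All 3 arrays were on 1 slide and were scanned together, and their place on it cannot be told apart from the group.

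Macrophage markers were strong on all 3 arrays, as the label says, but so were markers of B cells. All 10 macrophage markers were well above background on all 3 arrays. Csf1r, the receptor for the macrophage growth factor, stood at 6.13 in the control, 6.11 after 35 nmol and 6.17 after 70 nmol. Other macrophage markers differed more. At 70 nmol the 9 measured ones ran from -0.51 for Adgre1 to 0.76 for Fcgr1 against the control, with a median of 0.14. Lyz2, Icam2 and Cd74 were saturated on the arrays and are left out of the sums of marker signals that follow. Of the B cell markers, 9 of 10 were well above background on every array. Their log2 summed signal was 8.11 in the control, 8.05 after 35 nmol and 7.76 after 70 nmol. Macrophage markers without Lyz2 gave 8.86, 8.87 and 8.69. Among monocyte and small peritoneal macrophage markers, 4 of 8 were at least 1.5-fold higher at 70 nmol and none was as much lower. Markers of further cell types also differed between the arrays. Of the 8 measured mast cell markers, all were at least 1.5-fold lower at 70 nmol, and the log2 of their summed signal was 5.15 in the control, 4.54 after 35 nmol and 3.79 after 70 nmol, with Ms4a2 not well above background on any array. Large peritoneal macrophage markers were at least 1.5-fold lower at 70 nmol for 8 of 11, with a log2 summed signal without Icam2 of 8.70, 8.58 and 7.91 on the control, 35 nmol and 70 nmol arrays and all 12 well above background. Fibroblast markers were at least 2-fold higher at 70 nmol for 4 of 5, with 3.31, 3.49 and 5.07, and Lum, Pdgfra and Col6a1 were well above background at 70 nmol only. Hepatocyte markers stood at 4.49, 6.15 and -2.90, with Alb the only marker well above background at 70 nmol, and erythroid markers at 6.07, 3.54 and 5.14. The part of these cell types in the differences of the repair genes was not tested. In such a mixed sample, fewer cells of a type and less RNA per cell cannot be told apart.

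Repair transcripts differed little between 70 nmol and the control. None of the 35 measured members was 1.5-fold higher or 1.5-fold lower, where 5.55% of all 12541 measured genes were higher by that much and 3.83% were lower. The members' differences had a median of -0.04, against 0.04 over all genes, and ran from -0.45 for Xrcc5 to 0.57 for Ogg1. Their middle part was narrower than that of all genes, with quartiles of -0.13 and 0.13 against -0.14 and 0.21. At a lower bar of 1.3-fold, 1 member was higher (Ogg1) and 4 were lower (Parp1, Rad52, Xrcc4 and Xrcc5), beside 11.6% and 8.8% of all genes. The median of all genes was exceeded by 14 of the 35 members, and 21 fell short of it.

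At 35 nmol the members again stayed within 1.5-fold of the control. None of the 36 measured members passed that bar either way, beside 2.96% of 12733 genes that were higher and 1.92% that were lower. The median difference was 0.02, against 0.04 over all genes, from -0.25 for Xrcc5 to 0.50 for Mutyh. Past 1.3-fold lay 2 members that were higher, Mutyh and Fancd2, and none that was lower, where 6.5% and 5.5% of all genes passed. Between the doses, 1 of 35 members was at least 1.5-fold higher at 70 than at 35 nmol, which was Ogg1, and none was lower, beside 3.67% and 2.85% of 12388 genes. At 1.3-fold, 2 members were higher (Chek2 and Ogg1) and 3 were lower (Ercc6, Mutyh and Rad52) at 70 than at 35 nmol, beside 8.33% and 7.25% of genes. The median difference between doses was -0.08 for the members and 0.00 for all genes. At 2-fold no member passed in any of the 3 comparisons, with a background of 1.63% higher and 1.08% lower at 70 nmol against the control, 1.12% and 0.298% at 35 nmol against the control, and 0.92% and 0.718% between the doses. Both comparisons with the control rest on the same control array.

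**Figure D1:**
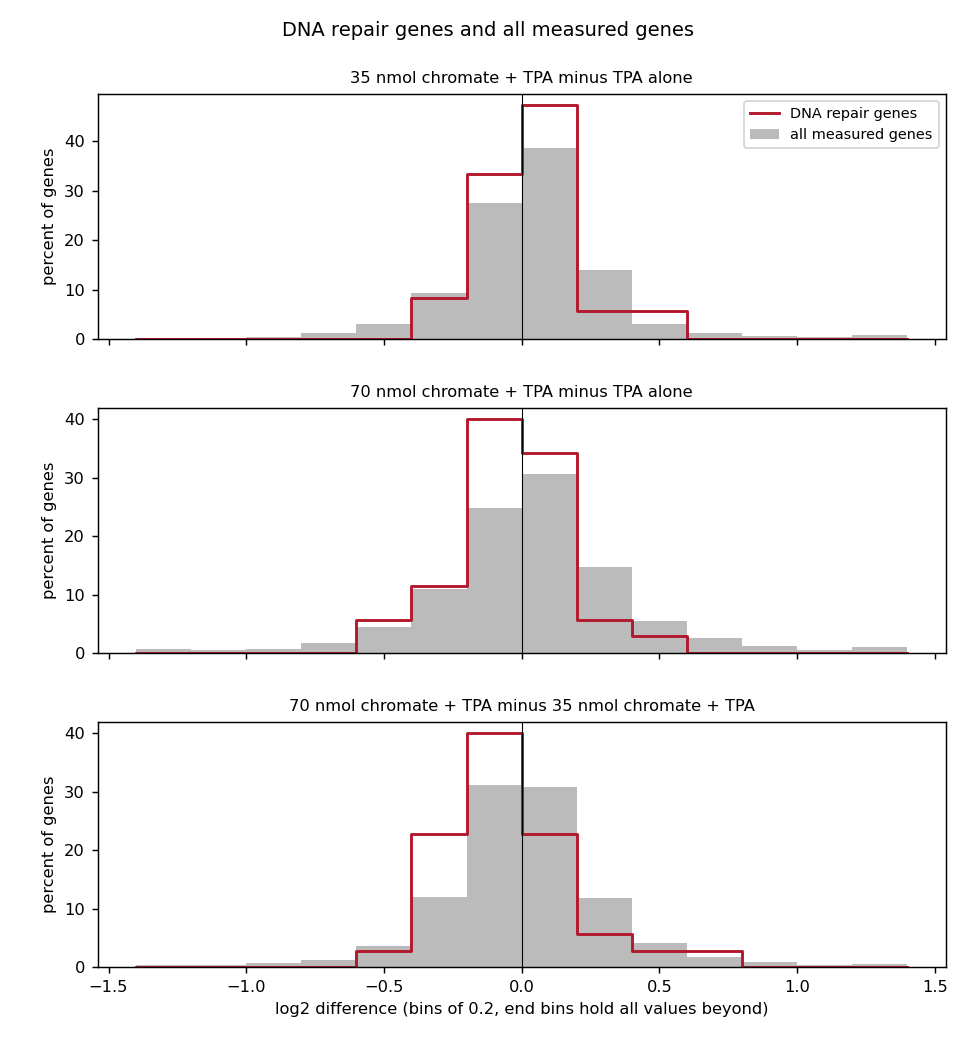
Percent of genes (vertical axis) in bins of log2 difference (horizontal axis) for the measured DNA repair genes (red outline) and for all measured genes (grey bars), with 35 nmol minus TPA alone at the top, 70 nmol minus TPA alone in the middle and 70 minus 35 nmol at the bottom. The outline is centred close to 0 in each panel, with medians of 0.02, -0.04 and -0.08, and holds no gene beyond 0.66 in either direction.

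**Figure D2:**
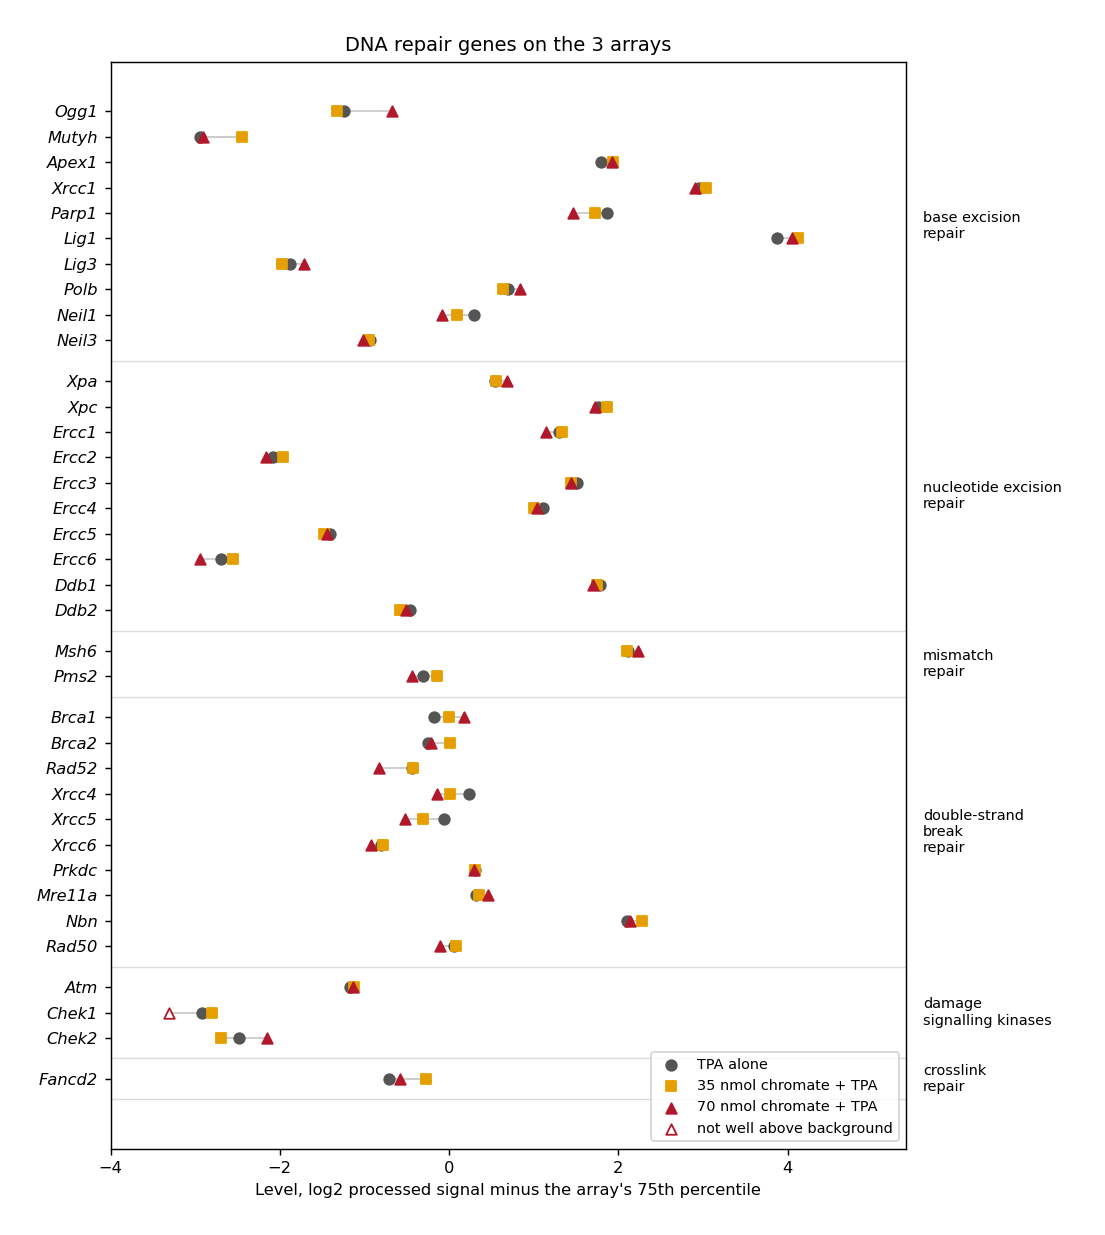
Level of the brightest probe of each of the 36 members (horizontal axis, log2 processed signal minus the array's 75th percentile) on the array of TPA alone (grey circle), of 35 nmol chromate with TPA (yellow square) and of 70 nmol chromate with TPA (red triangle), with an open symbol where the probe was not well above background. Positions are to be read along a row only; the symbols of most rows lie close together, and those of Ogg1, Parp1, Rad52 and Xrcc5 lie apart at 70 nmol.

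Base excision repair held the members with the widest differences. Its 10 members had a median difference of 0.08 at 70 nmol and -0.03 at 35 nmol against the control. Ogg1, the glycosylase that removes 8-oxoguanine, stood at -1.24 in the control, -1.33 after 35 nmol and -0.67 after 70 nmol. Its level was thus higher at 70 nmol than on either other array, by 0.57 ± 0.22 (scanner error, 1.48-fold) against the control and by 0.66 ± 0.22 (1.58-fold) against 35 nmol. Its other probe stood at -1.93, -2.44 and -1.44, which is 0.50 ± 0.24 higher at 70 nmol than on the control array and 1.01 ± 0.28 higher than at 35 nmol. At 35 nmol this probe was lower than on the control array, by a difference of -0.51 ± 0.29, while the brighter one differed by -0.09. The positions of the probes, chr6:113299868-113299927 and chr6:113299888-113299947 on build mm8, share 40 bases, so they are not independent readings of the transcript.

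Mutyh, which removes adenine opposite 8-oxoguanine, stood at -2.95, -2.45 and -2.90 on the control, 35 nmol and 70 nmol arrays. It was highest at 35 nmol, by 0.50 ± 0.32 against the control, and differed by 0.04 ± 0.36 at 70 nmol. Of the 3 Mutyh probes, only 1 was well above background on any array. That probe was dim, and the error at 35 nmol was not much smaller than the difference. The glycosylases Neil1 and Neil3 act mainly on oxidised pyrimidines. Neil1 stood at 0.29, 0.10 and -0.08, lowest at 70 nmol with a difference of -0.37 ± 0.21 from the control. Its dimmer probe stood at -1.02, -1.44 and -1.88, a difference of -0.86 ± 0.24 at 70 nmol and -0.42 ± 0.23 at 35 nmol. This was the 1 probe of 45 measured member probes that was at least 1.5-fold lower at 70 nmol, and none was as much higher. Both Neil1 probes thus had their highest level in the control and their lowest at 70 nmol, and they lie next to each other at chr9:56941321-56941380 and chr9:56941393-56941421 (mm8). Neil3 stood at -0.94, -0.94 and -1.02 on its brighter probe and at -1.77, -1.73 and -2.04 on the other.

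Parp1 binds nicked DNA and builds poly(ADP-ribose) chains that call in repair factors. It stood at 1.87, 1.72 and 1.46 on the control, 35 nmol and 70 nmol arrays, lowest at 70 nmol with a difference of -0.41 ± 0.20 from the control. Its other probe stood at 1.57, 1.57 and 1.23, a difference of -0.35 ± 0.20 at 70 nmol. The positions of the 2 probes, chr1:182436865-182437163 and chr1:182436885-182437183 (mm8), span 299 bases each and share 279. They are therefore not independent readings. Xrcc1, the scaffold to which Parp1 chains recruit the ligase, differed by -0.05 at 70 nmol and 0.07 at 35 nmol. The abasic site nuclease Apex1 differed by 0.12 and 0.14, and the gap-filling polymerase Polb by 0.14 and -0.06. Lig1, which seals nicks in replication and long-patch repair, differed by 0.18 at 70 nmol and 0.25 at 35 nmol. Lig3, the partner of Xrcc1, differed by 0.17 and -0.09 on its brighter probe, and its other probe was not well above background at 70 nmol. The differences of these 5 genes at 70 nmol were all smaller than their scanner errors of 0.20 to 0.24.

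**Figure D3:**
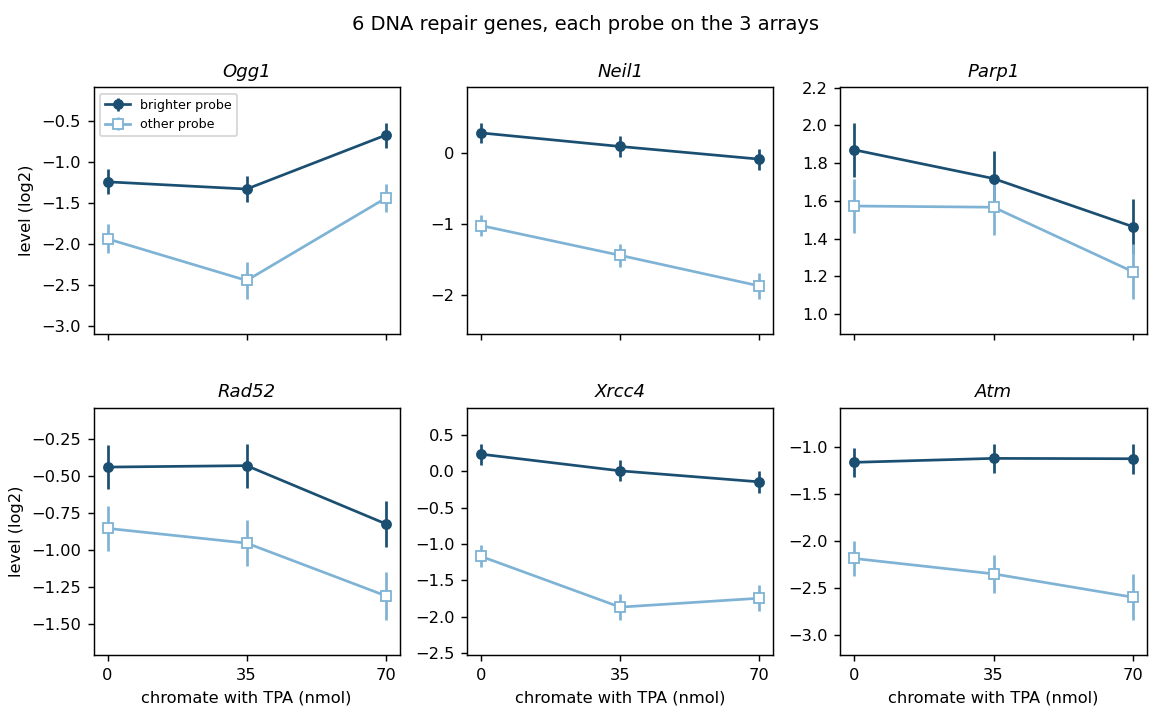
Level (vertical axis, log2 processed signal minus the array's 75th percentile, a scale of its own in each panel) against the amount of chromate given with TPA (horizontal axis, 0, 35 and 70 nmol) for both probes of 6 members; bars show the scanner error of 1 array. The probes of Ogg1 are highest at 70 nmol, those of Neil1, Parp1 and Rad52 are lowest there, those of Xrcc4 are highest with TPA alone, and those of Atm differ from each other.

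Nucleotide excision repair was close to flat across the arrays. At 70 nmol its 10 members ran from -0.25 for Ercc6 to 0.14 for Xpa with a median of -0.07. By small amounts, 9 of the 10 fell short of the all-gene median. That count depended on the processing. Under normexp background correction, an alternative described below, Ercc2, Ercc5, Ercc6 and Ddb2 also lay above the all-gene median of 0.03. The class median was then -0.0009. At 35 nmol they ran from -0.12 for Ddb2 to 0.13 for Ercc6 with a median of -0.01. The damage sensors Xpc, Ddb1 and Ddb2 differed by -0.03, -0.09 and -0.04 at 70 nmol. Xpc had a second probe, at chr6:91455610-91455669 (mm8), that stood at 0.07, 0.13 and -0.34 on the control, 35 nmol and 70 nmol arrays. That probe was lower at 70 nmol by a difference of -0.41 ± 0.21, while the brighter Xpc probe stood at 1.76, 1.86 and 1.73. The 2 probes lie 184 bases apart and so gave unlike readings of the same gene.

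The helicases of the TFIIH complex, Ercc2 and Ercc3, differed by -0.08 and -0.07 at 70 nmol. Xpa, which checks the opened DNA, differed by 0.14. The nucleases that cut on either side of the lesion were Ercc1 with Ercc4, at -0.15 and -0.07, and Ercc5, at -0.04. None of these differences exceeded its scanner error. Ercc6, the Cockayne syndrome protein of transcription-coupled repair, stood at -2.69, -2.56 and -2.94. It was lowest at 70 nmol, by -0.38 ± 0.35 against 35 nmol, on a dim probe.

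Of the mismatch repair members, Msh6 recognises mispaired bases and Pms2 is the nuclease subunit that follows it. Msh6 differed by 0.13 at 70 nmol and -0.01 at 35 nmol from the control. Pms2 stood at -0.31, -0.14 and -0.44, a difference of -0.13 ± 0.21 at 70 nmol and 0.17 ± 0.21 at 35 nmol from the control, and -0.30 ± 0.21 between the doses. Its level was highest at 35 nmol and lowest at 70 nmol, and only the difference between doses exceeded its error.

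The 10 members of double-strand break repair had a median difference of -0.07 at 70 nmol and 0.02 at 35 nmol. Their lowest members at 70 nmol were 2 end-joining genes and 1 recombination gene. Xrcc5 encodes Ku80, which with Ku70 forms the ring that grips a broken end. It stood at -0.06 in the control, -0.31 after 35 nmol and -0.52 after 70 nmol. The level was lower at each dose, with a difference of -0.45 ± 0.21 at 70 nmol (0.73 times the control) and -0.25 ± 0.21 at 35 nmol. Xrcc5 had 1 probe, so no second reading was at hand. Its partner Xrcc6, which encodes Ku70, stood at -0.80, -0.78 and -0.92, a difference of -0.12 ± 0.22 at 70 nmol. Prkdc, the kinase that Ku brings to the end, stood at 0.31, 0.31 and 0.29, each the mean of 9 or 10 spots with standard deviations of 0.029 to 0.049. Its 3 levels differed by less than the standard deviation of the spots on any of the arrays.

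Xrcc4, the scaffold of the end-joining ligase, stood at 0.24, 0.01 and -0.14. It was lower than the control by a difference of -0.38 ± 0.21 at 70 nmol and -0.23 ± 0.21 at 35 nmol. Its other probe stood at -1.17, -1.87 and -1.75, a difference of -0.58 ± 0.23 at 70 nmol and -0.70 ± 0.23 at 35 nmol. This was the 1 of 49 measured member probes that was at least 1.5-fold lower at 35 nmol, and none was as much higher. The probes lie 151725 bases apart at chr13:90323438-90323497 and chr13:90475223-90475282 (mm8). Both had their highest level in the control. At 70 against 35 nmol they differed by -0.15 ± 0.21 and 0.12 ± 0.25, each within its scanner error, so neither orders the doses.

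Rad52, a partner of strand annealing and recombination, stood at -0.44, -0.43 and -0.82. It was lower at 70 nmol than on both other arrays, by differences of -0.38 ± 0.21 against the control and -0.39 ± 0.21 against 35 nmol. The second probe, 1639 bases away, stood at -0.85, -0.95 and -1.31, with -0.46 ± 0.22 and -0.36 ± 0.23 for the same comparisons. At 35 nmol the probes differed from the control by 0.01 and -0.10. The Rad52 probes, at chr6:119888140-119888199 and chr6:119886441-119886500 (mm8), thus gave like readings without sharing sequence.

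Brca1, a ubiquitin ligase that favours recombination, had the highest difference of the class at 70 nmol against the control. It stood at -0.17, 0.01 and 0.17, a difference of 0.35 ± 0.21 at 70 nmol (-0.01 under spike-in scaling) and 0.18 ± 0.21 at 35 nmol (-0.24). Brca2, which acts in homologous recombination, stood at -0.25, 0.01 and -0.21 on its brighter probe, a difference of 0.04 ± 0.21 at 70 nmol and 0.26 ± 0.21 at 35 nmol. A second Brca2 probe, at chr5:150791591-150791650 (mm8), was well above background on the control array alone, with a processed signal of 129.7 there against 3.98 at 35 nmol and 4.49 at 70 nmol. That probe was at least 4.6-fold lower at 70 nmol and at least 5.15-fold lower at 35 nmol than on the control array, against the lowest signal well above background on each array. It rests on 1 spot per array and goes against the brighter probe, which lies 46378 bases away.

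The complex of Mre11a, Rad50 and Nbn holds broken ends together and trims them. Mre11a differed by 0.15 at 70 nmol and 0.04 at 35 nmol on its brightest probe, and by -0.12 and -0.07 on its next. Its dimmest detected probe was well above background on the control array and at 35 nmol, with a difference of -0.03 between them, but not at 70 nmol. Its control level was 1.09-fold the lowest level well above background at 70 nmol, a bound that leaves out the scanner error. Nbn differed by 0.03 and 0.18, and by 0.06 and 0.14 on its other probe. Rad50 differed by -0.17 and 0.02, and its other probe was well above background on the control array only. All of the measured differences at 70 nmol were within their scanner errors of 0.20 to 0.28.

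**Figure D4:**
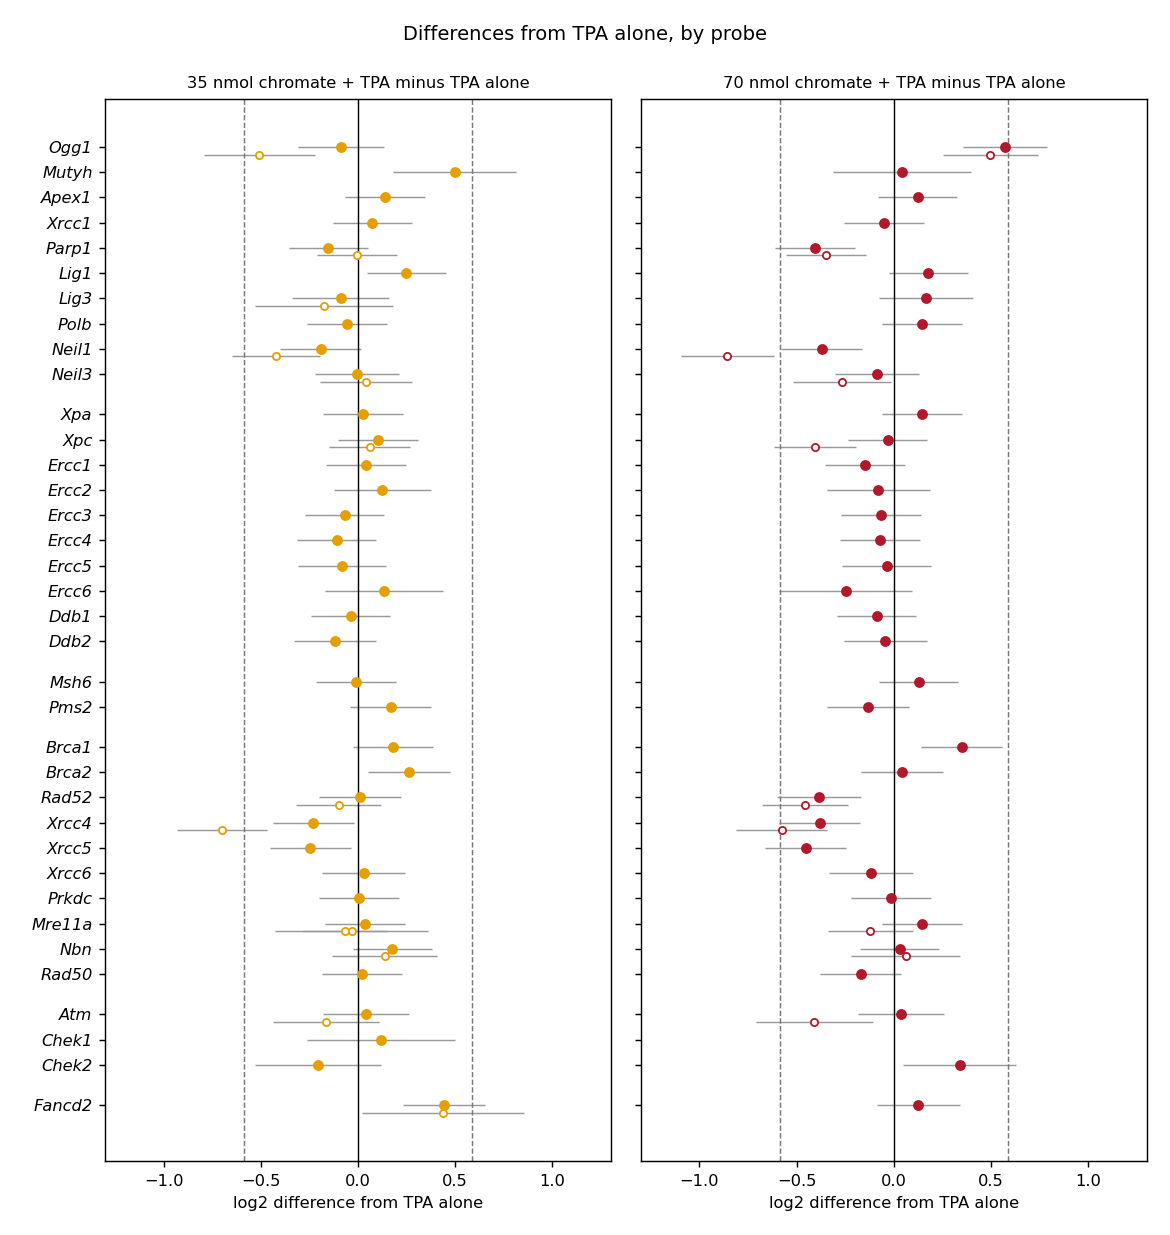
Log2 difference from TPA alone (horizontal axis) at 35 nmol (left) and 70 nmol (right) chromate with TPA for each measured probe of the members, with the brightest probe filled and others open; bars show the scanner error and dashed lines mark 1.5-fold. No filled point lies beyond a dashed line; the open points beyond one are Xrcc4 at 35 nmol and Neil1 at 70 nmol.

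Of the damage signalling kinases, Atm, which responds to double-strand breaks, had its brighter probe at -1.17, -1.13 and -1.13 on the control, 35 nmol and 70 nmol arrays. The levels lay within 0.04 of each other. Its other probe, spotted about 10 times on each array at chr9:53210457-53210516 (mm8), stood at -2.19, -2.35 and -2.60. That is a difference of -0.41 ± 0.30 at 70 nmol, where the repeated spots had standard deviations of 0.068 in the control, 0.092 after 35 nmol and 0.16 after 70 nmol. Chek2, the kinase downstream of Atm, stood at -2.49, -2.69 and -2.15. It was highest at 70 nmol, by 0.34 ± 0.29 against the control (-0.02 under spike-in scaling) and 0.55 ± 0.32 against 35 nmol, on a dim probe. Chek1, the kinase downstream of Atr, was well above background on the control array (-2.92) and at 35 nmol (-2.80) but not at 70 nmol. Its level was 1.26-fold the lowest level well above background at 70 nmol on the control array, and 1.37-fold at 35 nmol. These bounds leave out the scanner error. Another Chek1 probe was well above background on the control array only, at -3.46. The lowest level well above background was -3.42 at 35 nmol and -3.26 at 70 nmol. An equal level on those arrays would thus also have gone undetected. Read as it stands, the dim signal of the first Chek1 probe at 70 nmol gave a difference of -0.39 ± 0.45 from the control, within its error. Both checkpoint kinases lay near the lower end of what the arrays measured.

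Fancd2, which is ubiquitinated at crosslinked DNA, stood at -0.71, -0.27 and -0.58. It was highest at 35 nmol, by 0.44 ± 0.21 against the control, and differed by 0.13 ± 0.21 at 70 nmol. The other Fancd2 probe, at chr6:113556953-113557012 (mm8), differed by 0.44 ± 0.41 at 35 nmol and was not well above background at 70 nmol. The brighter probe lies at chr6:113562636-113562695, so both positions gave the same difference at 35 nmol.

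Agreement between probes sets how far single members can be read. At 70 nmol against the control, 10 members had at least 2 measured probes, and the range between a member's probes had a median of 0.19, as it had over the 4122 genes of that kind. The probes of 2 of these 10 members (20%) differed in sign, beside 38.5% of genes. At 35 nmol the median range was 0.11 over 12 members and 0.18 over 4196 genes, with 4 members (33.3%) and 44.3% of genes differing in sign. Most member differences were as small as these ranges. Of the 17 pairs of member probes, 2 overlapped on the genome, those of Ogg1 and Parp1.

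Other genes of the same pathways, outside the 37 members, showed a like picture. Of 91 listed, 88 were on the array and 82 were measured at 70 nmol against the control, with a median difference of -0.01. Past 1.5-fold, none was higher and 3 were lower, beside 5.55% and 3.83% of all genes. Only 1 of the 3 stayed past it under normexp background correction (Rad51b, at -0.95). That correction adds an offset of 50 to each signal, which makes log2 differences of dim probes smaller. At 35 nmol none of 81 passed either way, and the median was 0.07. Rad51b, a gene of homologous recombination, stood at 0.84, 0.71 and -0.31 on the control, 35 nmol and 70 nmol arrays. It was 2.22-fold lower at 70 nmol than in the control (-1.15 ± 0.21) and differed by -0.13 ± 0.21 at 35 nmol, on a probe at chr12:80732853-80732912 (mm8). Another Rad51b probe, at chr12:80233688-80233747, was not well above background on any array, so the difference has no second reading. Rad1, part of the clamp that activates Atr, stood at -1.35, -1.82 and -2.07, a difference of -0.72 ± 0.25 at 70 nmol (-0.30 under normexp) and -0.47 ± 0.23 at 35 nmol (-0.15 under normexp). Gtf2h3, a TFIIH subunit, stood at 1.39, 1.21 and 0.77, a difference of -0.62 ± 0.21 at 70 nmol (-0.54 under normexp) and -0.18 ± 0.20 at 35 nmol. These 3 genes were named because they passed 1.5-fold at a dose, so their low levels at 70 nmol follow from that choice. At 35 nmol the differences of Rad51b and Gtf2h3 were within their scanner errors.

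By pathway, the medians of these other genes at 70 nmol were 0.02 for base excision repair (13 genes), -0.01 for nucleotide excision repair (14), -0.10 for mismatch repair (6), -0.03 for double-strand break repair (16), -0.11 for damage signalling (11), 0.07 for crosslink repair (10) and -0.02 for translesion synthesis and direct reversal (12). At 35 nmol they were 0.02 (13), 0.04 (14), -0.00 (6), 0.10 (15), 0.07 (11), 0.21 (10) and 0.08 (12) in the same order. Crosslink repair had the highest median of these lists at 35 nmol, with 8 of 10 genes above the all-gene median, and Fancg the highest at 0.36. Several members, among them Brca1, Chek1, Lig1 and Fancd2, are known to be transcribed in cycling cells. The cell cycle lists were therefore set beside them. Genes of G1/S and DNA replication had a median difference of 0.06 at 70 nmol and 0.20 at 35 nmol, where 21 of 22 exceeded the all-gene median. Genes of G2/M had 0.03 at 70 nmol and 0.32 at 35 nmol, where 20 of 22 lay above it and the mitotic motor Kif11 was 0.89 higher. The part of cycling cells in the values of Brca2, Lig1 and Fancd2 at 35 nmol was not tested. At 70 nmol the 2 largest differences in the G1/S list were Cdc45, a part of the replication helicase, at -0.71 and Cdc6, which loads that helicase, at 0.48. In the G2/M list they were Nusap1 at -0.34 and Kif23 at -0.31, both of the mitotic spindle.

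**Figure D5:**
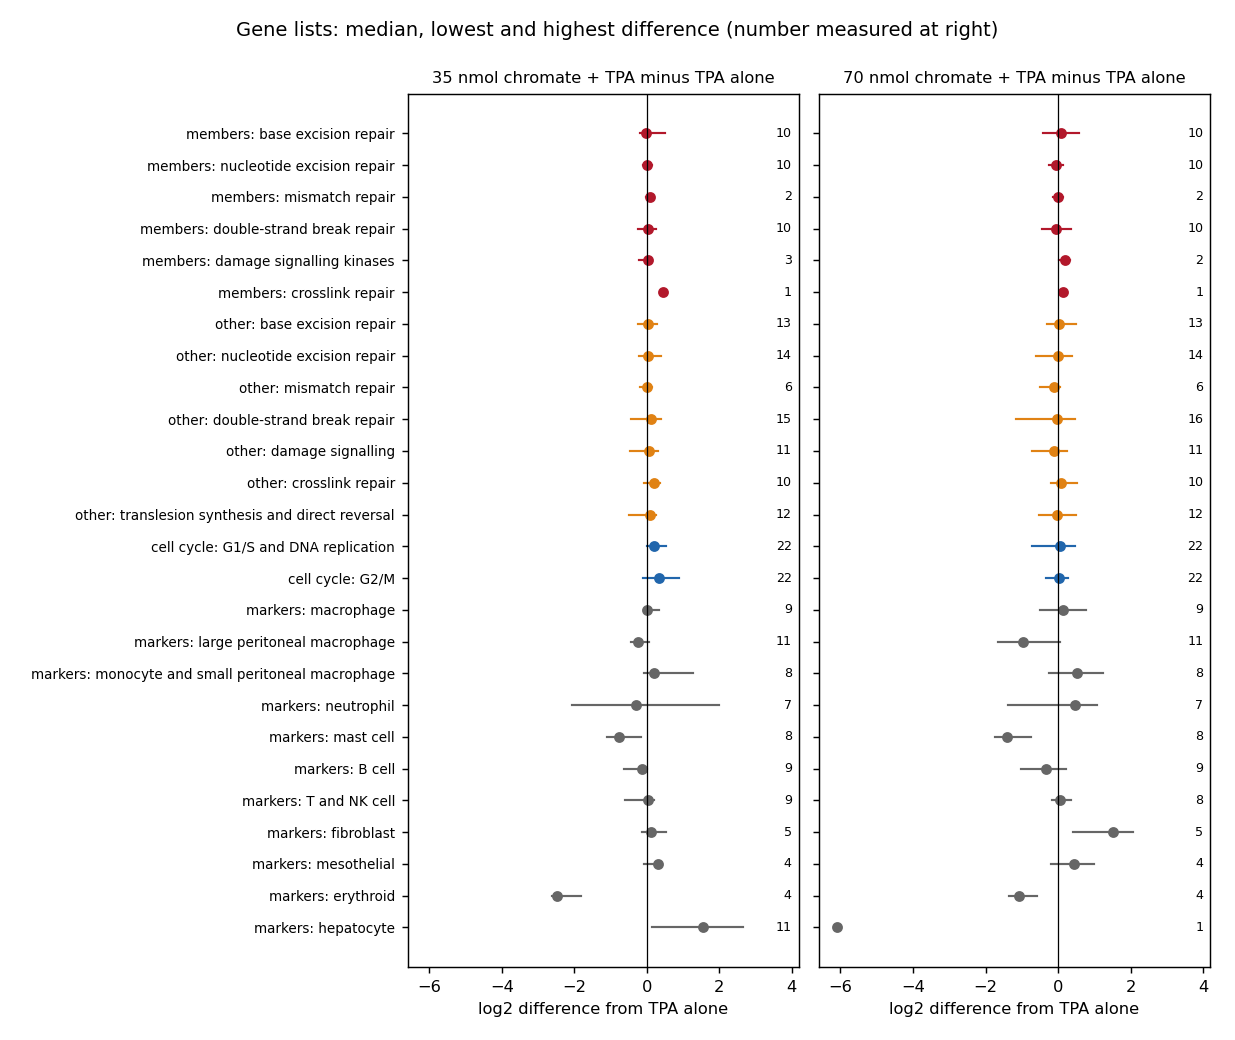
Median (point), lowest and highest (line) log2 difference from TPA alone (horizontal axis) at 35 nmol (left) and 70 nmol (right) for each class of the members (red), other repair genes by pathway (orange), cell cycle genes (blue) and cell type markers (grey), with the number of measured genes at the right. The repair classes lie within 0.44 of 0 by their medians, while the marker lists spread from -6.09 for Alb, the single hepatocyte marker measured at 70 nmol, to 1.56 for hepatocyte markers at 35 nmol.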

How the data were processed

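RNA of peritoneal cells was hybridised to 1 one-colour array per group (TPA alone, 35 nmol and 70 nmol chromate with TPA). The authors read spot intensity with Agilent Feature Extraction 10.5.1.1, which subtracted background, and probe positions are on mouse build mm8, per the file headers. The deposited value table holds log2 values of the authors. Set against the scanner files, each column differs from the log2 processed signal by a constant of 8.00 (control), 7.61 (35 nmol) or 7.67 (70 nmol), to within 0.01 in at least 99.8% of detected probes. The medians of its columns were -3.60, -3.74 and -3.78, its genes were not centred, and it was used as an alternative.

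The log2 of the processed signal was scaled here by each array's 75th percentile over 43379 spots that are not controls (8.07, 7.69 and 7.74). After outlier spots were removed, repeated spots were averaged, giving 41174 probes. Probes were named by accession through the RefSeq table of GRCm38.p6 (24375 probes), then by symbol (6301) or synonym (2426), while 8072 have the file's own name. For each gene the brightest probe was used that the scanner software flagged as well above background on any array. It counted as measured if the flag held for both arrays compared and no saturated or outlier spot was involved. Where a probe was not, a fold is a bound against the higher of its own signal and the lowest signal well above background. Such a bound leaves out the scanner error. Exons and UTRs were not assigned to probes, since no annotation of build mm8 was used here.

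With 1 array per group no test was run. A member counted as higher or lower past 1.5-fold. The steps were tested on simulated copies of the control array with set changes and spot error only. Spread between animals was not simulated, so that test does not show how reliable a 1.5-fold call is. All 37 members were to be named, and of other repair genes up to 3 per pathway past 1.5-fold, and of cell cycle and cell type lists the 2 with the largest difference at 70 nmol. Not every gene so selected is reported here. The members and lists were chosen with earlier results of these data known. Software was limma 3.58.1 in R 4.3.3, and numpy 2.4.6, matplotlib 3.10.9 and pandas 2.3.3 in Python 3.11.15.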

Additional observations from a re-analysis of the deposited data

How the results depend on the processing

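Alternatives were other bars (1.3-fold and 2-fold), normexp background correction, other normalisations (quantile, cyclic loess), other scalings (spike-in probes, the median of detected probes), other filters on dim probes (looser, stricter), averaging over a gene's probes, and the deposited value table. A change of sign was looked for only in single genes past 1.5-fold in the main analysis, and none changed. Among the members only Ogg1 was past it, between the doses. Smaller differences did change sign, such as that of Lig1 at 70 nmol against the control, which ran from -0.18 to 0.18. At 70 nmol against the control, the count of members that were higher was 1 at 1.3-fold and 1 under cyclic loess (Ogg1 both times), against 0. The count that were lower was 4 at 1.3-fold, 6 under spike-in scaling (Ercc6, Neil1, Parp1, Rad52, Xrcc4 and Xrcc5) and 1 with the mean over probes (Neil1), against 0. At 35 nmol against the control it was 2 higher at 1.3-fold, 1 higher under cyclic loess (Mutyh) and 4 lower under spike-in scaling (Chek2, Neil1, Xrcc4 and Xrcc5), against 0 each. At 70 against 35 nmol it was 2 higher and 3 lower at 1.3-fold, 0 higher at 2-fold, 0 higher under normexp (Ogg1 at 0.41) and 2 higher under spike-in scaling (Chek2 and Ogg1), against 1 higher and 0 lower.

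Spike-in scaling, from 4 of 10 spike-in probes, moved the median of all genes to -0.32 at 70 nmol and -0.38 at 35 nmol, from 0.04 in both. The members' medians moved with it to -0.40 and -0.40. This scaling shifts all genes of an array by the same amount, so the members' place relative to all genes could not change. Under that scaling Ogg1 differed by 0.21 at 70 nmol, and Brca1 and Chek2 by -0.01 and -0.02. Normexp, with its offset of 50, moved Rad1 to -0.30 and Gtf2h3 to -0.54 at 70 nmol, inside 1.5-fold. Normexp gave a members' median of 0.04 at 70 nmol against 0.03 over all genes, where the main values were -0.04 and 0.04. The members' median thus lay below that of all genes in the main analysis and above it under normexp. How much of the normexp shifts came from the offset was not tested, nor was the cause of the spike-in shifts. Of 162 class medians over all alternatives 14 moved, and of 1016 values of single genes 85 did, mostly under spike-in scaling. A gene counted as moved if its difference shifted by at least its scanner error. For a class median the bar was the members' median scanner error, about 0.21, which is larger than most class medians. The filters on dim probes cannot change a single gene's difference, and the scalings shift all genes of an array alike. These counts are therefore no measure of stability. No paired analysis was possible because each group has 1 array. With dim probes (Mutyh, Ercc6, Chek1, Chek2), signal over background limits what can be read.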
